A study of Mus musculus with 185 samples.

Results

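The blood-brain barrier genes described here were 10 genes of the mouse brain, Mfsd2a, Slc2a1, Slco1a4, Slco1c1, Slc7a5, Slc16a1, Abcb1a, Abcg2, Cldn5 and Pecam1, out of 57010 genes in the count table. They were chosen by name, with their measured 24 h response to fasting already known, so their 24 h values are a description: calls at 24 h are read off the fit across all genes, with no p-value, and support nothing. All 10 passed the filter on low counts in both studies, in which 29011 genes (24 h) and 29746 genes (16 h) were tested.

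Bulk RNA-seq was made from 5 dissected brain regions of each of 37 male C57BL/6 J mice, which were 8 weeks old when obtained. In the 16 h study, pair-housed mice were kept on chow, switched to a high-fat diet (HFD, D12331) or fasted, with 6 mice in 3 cages per diet. In the 24 h study, single-housed mice stayed on chow (9 mice) or were fasted (10 mice). Hypothalamus, hippocampus and superior and inferior colliculus were sequenced in both studies, with prefrontal cortex added at 16 h and zona incerta at 24 h. The studies were also sequenced apart. Duration, housing, regions and sequencing therefore cannot be told apart between the studies, and diets were compared only within each. Nothing genetic differed between groups, and every mouse had free access to water. Each mouse had 5 columns of counts that name the mouse but not the region, so the 5 columns were added per mouse. Values are given as CPM, this sum scaled to 1000000 counts.

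The blood-brain barrier is formed by endothelial cells of brain capillaries, which are sealed to each other by tight junctions and keep transport across the cell to a minimum. Nutrients therefore enter the brain through carriers for glucose, amino acids, lactate and ketone bodies, lipids and thyroid hormone, while efflux pumps return many foreign molecules to the blood. Several of these carriers are also made by astrocytes, neurons or the choroid plexus, so a level in whole tissue is not that of endothelial cells alone.

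The mouse sums held 57962237 to 161577364 counts, and the single columns 2994 to 65973281. Of all columns, 27 were low, having under 1000000 counts or under 16000 genes expected in a draw of 500000 counts. Of these low columns, 23 belonged to the 24 h study. The authors' quality control discarded a block of libraries of the longer study without detectable RNA, sequenced on a separate flowcell. It also excluded libraries with few aligned reads and flagged outliers of a principal component analysis. Which columns hold these libraries was not tested. The mouse sums hold every column, low ones included. By the labels, the superior colliculus samples of chow mouse 1423 and fasted mouse 1454 lay in each other's tubes. According to the study's methods, the sample metadata were corrected for this exchange, and whether the columns of counts carry the correction was not tested. Results at 24 h are therefore also given without both mice. Summed CPM of 7 choroid plexus markers reached 4181 in fasted mouse 1453 and 1791 in chow mouse 1443, against 34.3 to 288 in the other 17 mice of the 24 h study. All 10 endothelial markers, among them Cldn5, Pecam1, Cdh5 and Tie1, were detected, as were the neuronal and glial markers of brain tissue. Mitochondrial genes took 3.78% to 4.98% of counts at 16 h and 8.57% to 16.7% at 24 h.

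Upstream sequences are shown for Slc2a1, the glucose carrier gene that was higher after fasting, and for the reference gene Cldn5, which was lower. Each is the 250 bases before the outermost annotated start of the gene (GENCODE vM39, GRCm39), read 5′ to 3′ on the strand of the gene. Slc2a1 lies on the plus strand at chr4:118965908-118996365 (10 exons in its canonical transcript) and its window at chr4:118965658-118965907. Cldn5 is a single-exon gene at chr16:18595597-18597012 on the plus strand, with its window at chr16:18595347-18595596.
Slc2a1: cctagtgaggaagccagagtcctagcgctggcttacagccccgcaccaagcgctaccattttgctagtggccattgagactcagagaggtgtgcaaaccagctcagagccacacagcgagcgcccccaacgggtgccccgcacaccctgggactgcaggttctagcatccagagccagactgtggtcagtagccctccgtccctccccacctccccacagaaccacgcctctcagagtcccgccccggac
Cldn5: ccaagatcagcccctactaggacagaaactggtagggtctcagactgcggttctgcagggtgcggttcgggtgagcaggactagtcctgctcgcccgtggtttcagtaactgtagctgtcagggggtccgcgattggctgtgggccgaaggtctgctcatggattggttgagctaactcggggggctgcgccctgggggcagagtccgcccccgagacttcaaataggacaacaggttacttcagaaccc
Capitals would mark a match, on either strand, to TGTTCT (part of the glucocorticoid receptor site), GTAAACA (forkhead FoxO), AGGTCA (part of nuclear receptor sites), CACGTG (the E-box) or CTTTGAT (TCF/LEF). None of these letters stood in either window. Of 21664 such windows of protein-coding genes, TGTTCT stood in 15.5%, GTAAACA in 2.97%, AGGTCA in 13.8%, CACGTG in 5.71% and CTTTGAT in 3.18%. Of the other barrier genes searched, AGGTCA stood in the windows of Abcb1a and Abcg2, and CACGTG in those of Slc7a5 and Slc16a1. The matches depended on the start used. At its RefSeq start, Abcb1a had GTAAACA and no AGGTCA, and not every RefSeq window of Abcg2 held AGGTCA. Slc16a1 again had CACGTG there, and Slc2a1 again had no match.

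After 24 h of fasting, the lipid carrier Mfsd2a and the glucose carrier Slc2a1 (GLUT1) were higher in every fasted mouse than in any chow mouse. The amino acid carrier Slc7a5 (LAT1) and the efflux pump Abcg2 were also higher on average, whereas Cldn5, the main claudin of brain endothelial tight junctions, and the monocarboxylate carrier Slc16a1 (MCT1) were lower. Slco1a4, Slco1c1, Abcb1a and Pecam1 were not called by edgeR in the fit across all genes. Thus 4 of the 10 were called higher (background, 5.78% of genes tested) and 2 lower (background, 5.62%) at an adjusted p threshold of 0.05. The ranges of fasted and chow mice did not overlap for 2 genes, both higher (background, 0.714%), and for 0 genes lower (background, 0.586%). Because this contrast chose the genes, nothing is read from these counts.

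**Figure D1:**
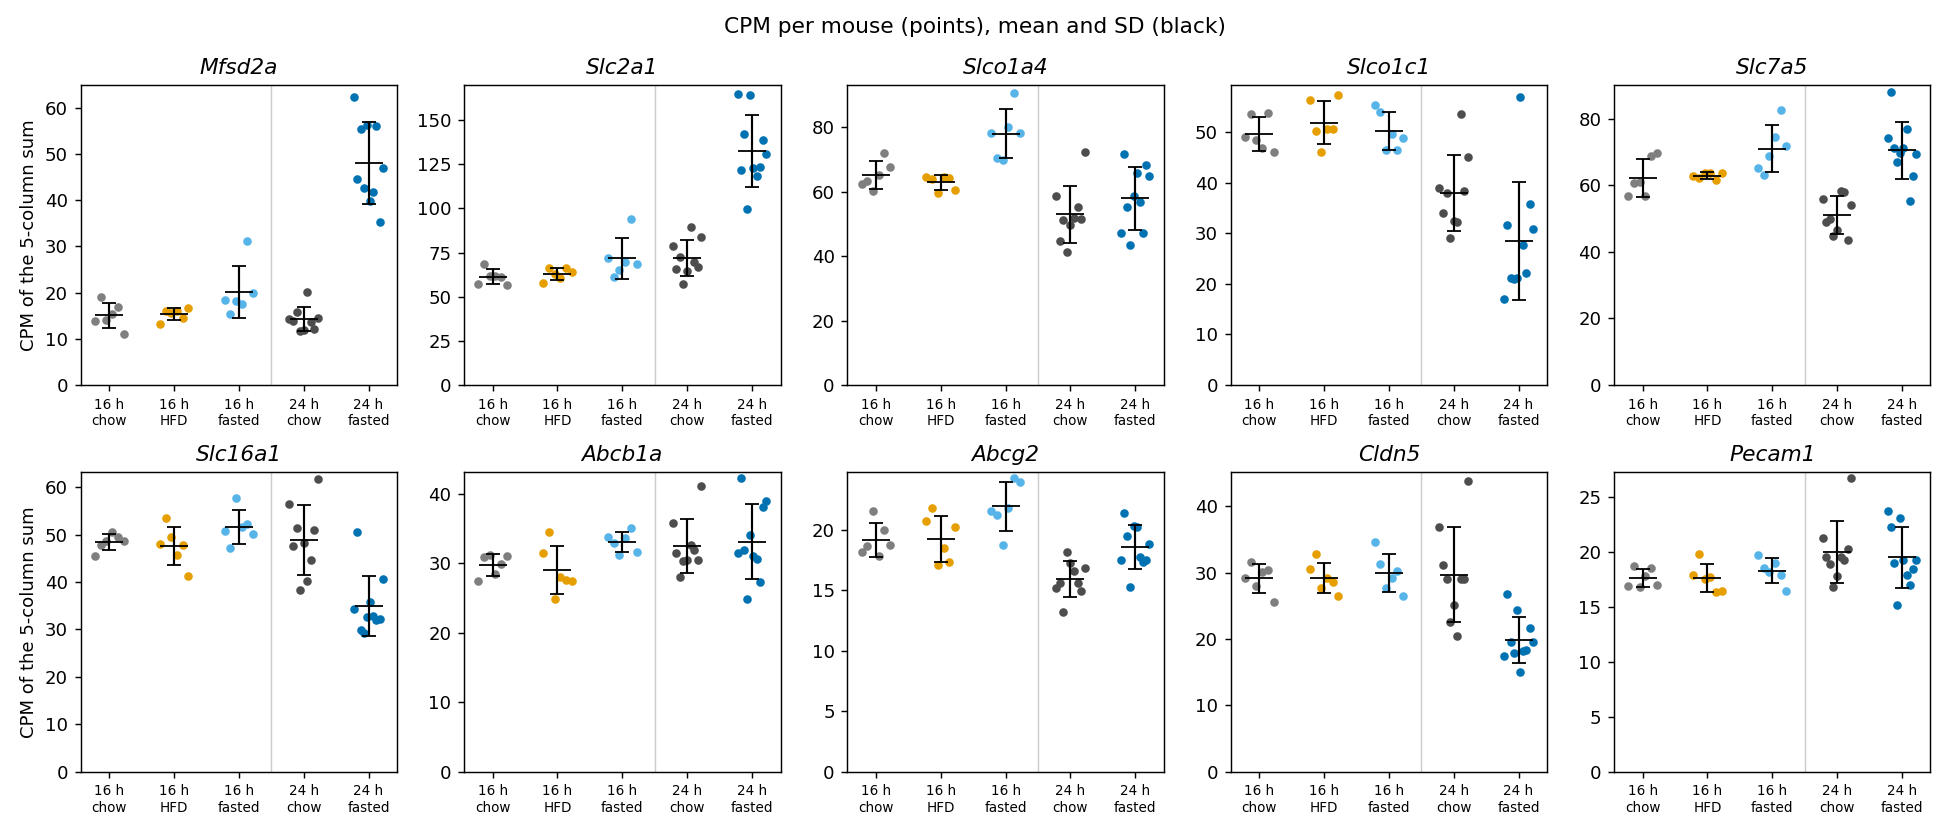
CPM of the 10 genes (vertical axes, from 0) in each mouse (points) of the 5 groups, with group mean and SD in black. Mfsd2a and Slc2a1 in 24 h fasted mice (35.3 to 62.4 and 99.9 to 164.5 CPM) sit above every 24 h chow mouse, and mouse 11 stands above the other 16 h fasted mice in both panels.

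Mfsd2a encodes the carrier that brings lysophosphatidylcholine with docosahexaenoic acid into the brain and keeps transcytosis low in barrier endothelium. It ranged from 11.7 to 20.2 CPM (median 13.8) in the 9 chow mice and from 35.3 to 62.4 CPM (median 45.8) in the 10 fasted mice. The lowest fasted mouse was thus above the highest chow mouse, which was mouse 1423. The means were 14.2 ± 2.62 CPM (SD, n = 9) and 48.1 ± 8.86 CPM (SD, n = 10), a log2 fold change of 1.82 (SE 0.13). Without mice 1423 and 1454 the log2 fold change was 1.92, and over leaving out each mouse in turn it was 1.77 to 1.91.

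The single columns showed the same order. Mfsd2a exceeded the chow median in 37 of 38 usable fasted columns, and exceeded the highest of 34 chow columns in 28. That highest chow column belonged to mouse 1423, whose 4 usable columns held 10.9, 13.5, 14.5 and 35.4 CPM. The lowest fasted column belonged to mouse 1454, whose 4 usable columns held 8.85, 25.8, 50.0 and 52.6 CPM. The columns of the other chow mice held 2.39 to 19.4 CPM and those of the other fasted mice 14.0 to 78.7 CPM. The lowest of each, in mice 1422 and 1445, held 4596549 and 4200885 counts in all. Both stood at the end of the column order, where the sample list holds the block that the authors discarded. Whether they belong to that block was not tested. The columns do not name the region, and whether the 2 odd columns are the exchanged tubes was not tested. Within a fasted mouse the highest usable column was a median of 2.06 times the lowest, against 1.59 times in chow mice.

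**Figure D2:**
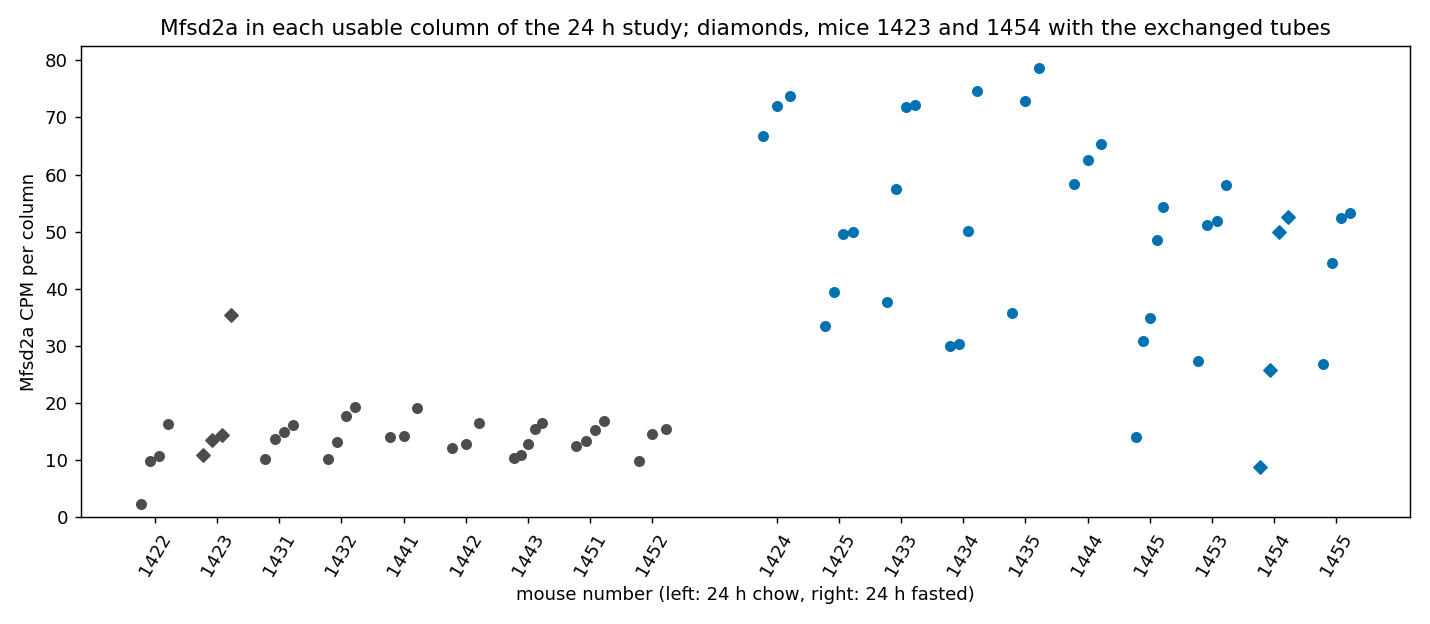
Mfsd2a CPM (vertical axis, from 0) in each usable column of the 24 h study, by mouse number (horizontal axis), chow mice in grey and fasted mice in blue. Diamonds mark mice 1423 and 1454, where 1 chow column reached 35.4 CPM and 1 fasted column fell to 8.85 CPM; the other chow columns end at 19.4 CPM.

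Slc2a1 encodes GLUT1, which carries glucose across the barrier and into astrocytes. It ranged from 57.3 to 89.4 CPM (median 69.8) in chow mice and from 99.9 to 164.5 CPM (median 127.1) in fasted mice. All 10 fasted mice lay above the highest chow mouse. The means were 72.05 ± 10.3 CPM (SD, n = 9) and 132.7 ± 20.4 CPM (SD, n = 10), and the log2 fold change was 0.94 (SE 0.09), or 1.00 without mice 1423 and 1454. Both carriers were also high in the same column of mouse 1423, where Slc2a1 reached 145.95 CPM.

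Slc7a5 encodes the light chain of the large neutral amino acid carrier, which also takes up L-DOPA and thyroid hormone. It ranged from 43.6 to 58.3 CPM (median 49.8) in chow mice and from 55.1 to 87.9 CPM (median 70.3) in fasted mice. The groups overlapped only through 1 fasted mouse, since the other 9 lay above the highest chow mouse. The log2 fold change was 0.51 (SE 0.06). Slc16a1 encodes MCT1, the carrier of lactate and ketone bodies. It ranged from 38.3 to 61.6 CPM (median 48.1) in chow mice and from 29.3 to 50.5 CPM (median 32.7) in fasted mice. Of the fasted mice, 8 lay below the lowest chow mouse, and the log2 fold change was -0.43 (SE 0.09).

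The organic anion carriers Slco1a4 (Oatp1a4) and Slco1c1 (Oatp1c1, which carries thyroxine) differed from each other. Slco1a4 ranged from 41.4 to 72.4 CPM (median 51.7) in chow mice and from 43.5 to 71.8 CPM (median 57.7) in fasted mice, so the fasted range lay within the chow range (log2 fold change 0.18, SE 0.08). Slco1c1 ranged from 29.0 to 53.6 CPM (median 37.9) in chow mice and from 17.0 to 56.9 CPM (median 24.9) in fasted mice. Of the fasted mice, 6 lay below the lowest chow mouse, while fasted mouse 1453 lay above the highest. The log2 fold change was -0.37 (SE 0.16).

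Slco1c1 is also made in the choroid plexus, and the highest mouse of each group was the one with the highest choroid plexus marker sum (1453 and 1443). The chow mice with the next highest marker sums, 1432 (288 CPM) and 1423 (197 CPM), went the other way. They held 34.0 and 32.1 CPM of Slco1c1, below the chow median of 37.9 CPM. In mouse 1453 a single column held 96.9 CPM of Slco1c1 and 9542 CPM of the summed choroid plexus markers, and its other 3 usable columns held between 25.4 and 32.8 CPM of Slco1c1. In mouse 1443 the column with 118.4 CPM of Slco1c1 held 8632 CPM of these markers. Without mice 1443 and 1453, left out after their values were seen, the log2 fold change was -0.44 and Slco1c1 was called, which made 3 of the 10 genes lower. Whether choroid plexus tissue set the high Slco1c1 values was not tested.

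Of the efflux pumps, Abcg2 (breast cancer resistance protein) ranged from 13.2 to 18.2 CPM (median 15.6) in chow mice and from 15.3 to 21.3 CPM (median 18.3) in fasted mice. The groups overlapped, with 5 of 10 fasted mice above the highest chow mouse, and the log2 fold change was 0.27 (SE 0.06). Abcb1a, a P-glycoprotein gene with the near paralog Abcb1b, ranged from 28.1 to 41.2 CPM (median 31.6) in chow mice and from 24.9 to 42.3 CPM (median 31.7) in fasted mice. Its log2 fold change was 0.08 (SE 0.08), and reads shared with Abcb1b make its level uncertain.

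The 2 structural genes went apart. Cldn5 ranged from 20.5 to 43.8 CPM (median 29.0) in chow mice and from 15.1 to 26.8 CPM (median 18.96) in fasted mice. Every fasted mouse lay below the chow median and 7 lay below the lowest chow mouse, with means of 29.7 ± 7.17 CPM (SD, n = 9) and 19.9 ± 3.47 CPM (SD, n = 10) and a log2 fold change of -0.52 (SE 0.12). Pecam1, the endothelial adhesion molecule CD31, ranged from 16.8 to 26.7 CPM (median 19.5) in chow mice and from 15.1 to 23.7 CPM (median 19.1) in fasted mice. These ranges overlapped almost fully, and the log2 fold change was 0.01 (SE 0.08). In bulk tissue, fewer endothelial cells and less RNA per cell cannot be told apart. Without mice 1423 and 1454, again 4 genes were called higher and 2 lower, and the log2 fold changes were 0.53 for Slc7a5, 0.29 for Abcg2, 0.19 for Slco1a4, 0.09 for Abcb1a, 0.03 for Pecam1, -0.39 for Slco1c1, -0.44 for Slc16a1 and -0.56 for Cldn5.

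**Figure D3:**
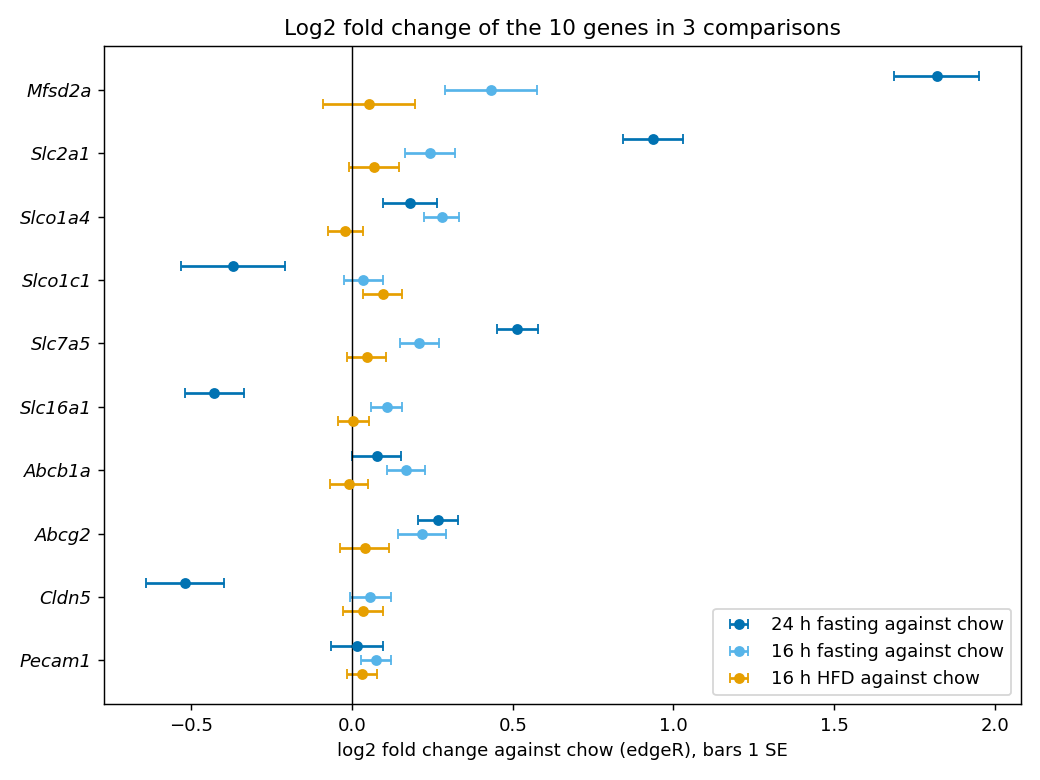
Log2 fold change against chow (horizontal axis) of each gene in the 24 h fasting, 16 h fasting and 16 h HFD comparisons, with bars of 1 SE. Mfsd2a at 24 h stands at 1.82, and every HFD value lies between -0.02 and 0.10.

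Relative to Cldn5 in the same mouse, Mfsd2a was higher by 2.31 (SE 0.18), Slc2a1 by 1.44 (SE 0.15) and Slc7a5 by 1.02 (SE 0.15) on the log2 scale at 24 h. Because Cldn5 itself was lower in fasted mice, this reference raised nearly everything: 58.8% of 29010 genes were called higher relative to it and 0.493% lower. Slc16a1 and Slco1c1, lower in CPM, stood at 0.08 each relative to Cldn5, and Pecam1 at 0.52. Relative to the summed CPM of 10 endothelial markers, which include Cldn5 and Pecam1, Mfsd2a was higher by 2.10, Slc2a1 by 1.22 and Slc7a5 by 0.80. Relative to Pecam1, a reference added after the values were seen, Mfsd2a was higher by 1.80, Slc2a1 by 0.92 and Slc7a5 by 0.50, close to their differences in CPM. Mfsd2a, Slc2a1 and Slc7a5 were higher under each of the 3 references. This followed from their higher CPM and from references that were lower or nearly unchanged, and it lends them no support. The sign of Slc16a1 and Slco1c1 depended on the reference. Without mice 1423 and 1454, Mfsd2a was higher by 1.87 (Pecam1) to 2.45 (Cldn5) over the 3 references, Slc2a1 by 0.97 to 1.55 and Slc7a5 by 0.50 to 1.08.

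**Figure D4:**
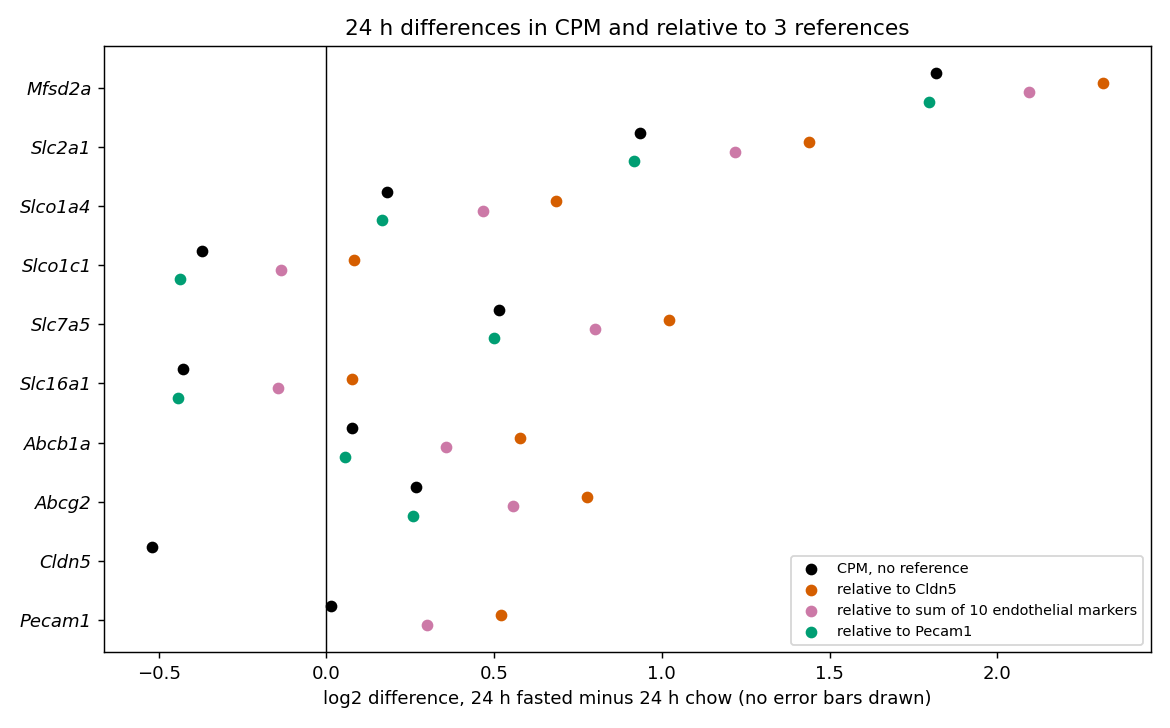
Log2 difference between 24 h fasted and chow mice (horizontal axis) for each gene in CPM and relative to Cldn5, to the sum of 10 endothelial markers and to Pecam1. Mfsd2a runs from 1.80 (Pecam1) to 2.31 (Cldn5), while Slc16a1 runs from -0.44 to 0.08.

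At 16 h, fasting moved no gene past the test: edgeR called 0 of 29746 genes (0%) in either direction, while 7.62% (2267 genes) had an unadjusted p under 0.05. DESeq2 called 19 genes, of which Slco1a4 was the only barrier gene. On simulated counts of this comparison, 200 genes were changed by a factor larger than any difference of the barrier genes here. DESeq2 recovered 193 of them with 39 false calls and edgeR 191 with 9. Recovery of differences as small as those of the barrier genes here was not tested, nor was the DESeq2 call of Slco1a4. All 10 barrier genes were nominally higher (median log2 fold change of all genes tested, -0.0034), and 7 of the 10 had an unadjusted p under 0.05 (background, 7.62%). The genes were chosen with earlier results of these data known, and they were measured in the same mice. Nothing is therefore read from these counts. The ranges of fasted and chow mice overlapped for all 10, against a background of 0.121% of genes separated upward and 0.168% downward.

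Slco1a4 ranged from 60.3 to 72.2 CPM (median 64.4) in the 6 chow mice and from 69.9 to 90.7 CPM (median 78.4) in the 6 fasted mice, of which 4 lay above the highest chow mouse. Its log2 fold change was 0.28 (SE 0.06), the 7th smallest p-value of all genes in edgeR (adjusted p = 0.384, edgeR quasi-likelihood test with Benjamini-Hochberg adjustment). With DESeq2 the adjusted p was 0.0215. The cages were started in 3 rounds of clock times with 2 mice per diet in each, and within rounds the log2 difference of Slco1a4 was 0.24, 0.26 and 0.27.

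Mfsd2a ranged from 11.1 to 19.1 CPM (median 14.7) in chow mice and from 15.3 to 31.2 CPM (median 18.3) in fasted mice (log2 fold change 0.43, SE 0.14, adjusted p = 0.579 by edgeR). All 6 fasted mice lay above the chow median, and 2 lay above the highest chow mouse. Slc2a1 ranged from 56.9 to 68.6 CPM (median 61.5) in chow mice and from 61 to 94.2 CPM (median 69.02) in fasted mice (log2 fold change 0.24, SE 0.08, adjusted p = 0.565 by edgeR). Both were highest in fasted mouse 11 of the third round, which lost 7.52% of its body weight, the most of the 6 fasted mice (median change -2.50%). Its cage mate 12 changed by -6.49% and held 20.0 CPM of Mfsd2a and 68.6 CPM of Slc2a1. Mouse 11, like fasted mice 10 and 12, had a low column, and by the labels its hippocampus library failed the alignment check. Whether weight loss or the regions in its sum set the values of mouse 11 was not tested. Within the 3 rounds the log2 difference of Mfsd2a was 0.03, 0.28 and 0.87, and that of Slc2a1 was 0.08, 0.12 and 0.46. Without the third round, left out after its values were seen, the log2 fold changes fell to 0.15 for Mfsd2a and 0.10 for Slc2a1.

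Slc7a5 ranged from 56.7 to 69.7 CPM in chow mice and from 63.05 to 82.5 CPM in fasted mice (log2 fold change 0.21, SE 0.06, adjusted p = 0.565 by edgeR). Abcb1a ranged from 27.4 to 31.2 CPM in chow mice and from 31.2 to 35.1 CPM in fasted mice, with 5 of 6 fasted mice above the highest chow mouse and the lowest fasted mouse just below it (log2 fold change 0.17, SE 0.06, adjusted p = 0.579 by edgeR). Abcg2 and Slc16a1 had log2 fold changes of 0.22 (SE 0.07) and 0.11 (SE 0.05). Slco1c1, Cldn5 and Pecam1 lay between 0.04 and 0.07. Each of the 7 genes with an unadjusted p under 0.05 was higher in all 3 rounds. The rounds split the same mice that gave these p-values, so this is no separate support. Relative to Cldn5, 0% of 29745 genes were called in either direction, and Mfsd2a and Slco1a4 had the largest differences of the 9 other barrier genes, 0.36 (SE 0.15) and 0.22 (SE 0.09), with adjusted p = 0.922 for each by limma.

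Against the same chow mice, no barrier gene passed the test after 16 h of HFD. edgeR called 0 of 29746 genes (0%), with 9.8% (2914 genes) at an unadjusted p under 0.05, and DESeq2 called 5 genes, none of them a barrier gene. Log2 fold changes of the 10 genes lay between -0.02 (Slco1a4) and 0.10 (Slco1c1), with SEs of 0.05 to 0.14, and none had an unadjusted p under 0.05. The ranges overlapped for all 10, against 0.138% of genes separated upward and 0.524% downward. Mfsd2a ranged from 13.1 to 16.8 CPM on HFD and Slc2a1 from 57.5 to 66.4 CPM, both within the chow ranges. Relative to Cldn5, 0% of genes were called, and the 9 other barrier genes lay between -0.05 and 0.06. Whether the 16 h and 24 h responses to fasting differ was not tested, since duration, housing, regions and sequencing changed together.

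Per kilobase of exon in chow mice, Cldn5 had the highest level of the 10 in both studies, at 20.6 ± 1.51 CPM per kilobase (SD, n = 6) at 16 h and 21.0 ± 5.06 (SD, n = 9) at 24 h. Exon length was the union of exons over all annotated transcripts, so the order depends on the annotation. It was 1416 bases for Cldn5, 9515 for Abcg2 and 10002 for Pecam1. In CPM Cldn5 was not the highest, with a 16 h chow mean of 29.1 against 65.2 for Slco1a4. After Cldn5 came Slc7a5 and Slc2a1, with 16.2 ± 1.48 and 13.1 ± 0.90 CPM per kilobase at 16 h and 13.3 ± 1.46 and 15.4 ± 2.19 at 24 h. Their order changed between the studies, which did not sum the same regions. Mfsd2a stood at 5.64 ± 1.03 CPM per kilobase at 16 h, above the mean of Abcb1a (4.85 ± 0.26) with overlapping ranges. At 24 h it stood at 5.32 ± 0.98, or 5.04 without mouse 1423, within the spread of Abcb1a (5.28 ± 0.63). Abcg2 (2.01 and 1.67) and Pecam1 (1.76 and 2.00) had the lowest means.

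Mfsd2a and Slc2a1 also varied together among mice of the same group. After removing group means, their log2 CPM correlated with r = 0.76 over the 19 mice of the 24 h study and r = 0.89 over the 18 mice of the 16 h study, points that share library depth and tissue proportions. Without mice 1423 and 1454 the first was 0.69, and without fasted mouse 11, left out after its values were seen, the second was 0.76. Among 17934 genes, those most like Mfsd2a by the mean of both correlations were Capn2 (a calpain, 0.83), Slc2a1 (0.83), Sdc4 (syndecan 4, 0.82), Tsc22d3 (the glucocorticoid-induced leucine zipper, 0.81) and Zkscan5 (0.80). Those most like Slc2a1 were Mfsd2a (0.83), Nostrin (an endothelial nitric oxide synthase trafficking protein, 0.79), Tsc22d3 (0.78), Slc25a13 (0.78) and Atp10a (0.77). Cldn5 was most like Sp100 (0.83), the VEGF receptor Flt1 (0.81), the endothelial receptor component Eng (0.79), Fbxw15 (0.74) and Frmd5 (0.71). Neither Mfsd2a nor Slc2a1 was among the genes most like Cldn5, with which their 24 h correlations were 0.05 and 0.22, or 0.30 and 0.48 without mice 1423 and 1454.

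The wider gene lists at 24 h did not follow Mfsd2a and Slc2a1. These lists were written with earlier results of these data known. Their counts are a description, and nothing is read from any excess over the background. Of 22 other barrier transporters, 4 rose (background, 5.78% of genes tested) and 5 fell (background, 5.62%). Abcc4, an efflux pump, rose by 0.53 (SE 0.09), the thiamine carrier Slc19a3 by 0.37 (SE 0.10) and the insulin receptor Insr by 0.23 (SE 0.04), while the amino acid carrier Slc38a5 fell by 1.38 (SE 0.22) on the log2 scale. The organic anion carrier Slc22a8 fell by 0.84 (SE 0.16) and the glutamine carrier Slc38a3 fell by 0.42 (SE 0.08). The median of this list was -0.09, against -0.0044 over all genes tested.

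Of 28 endothelial junction and identity genes, 11 fell (background, 5.62% of genes tested) and 1 rose (background, 5.78%), with a median of -0.21. Itm2a fell by 0.91 (SE 0.09), and the receptor tyrosine kinases Tie1 and Tek, the latter the angiopoietin receptor, fell by 0.87 (SE 0.12) and 0.77 (SE 0.10). The guidance receptor Robo4 rose by 0.48 (SE 0.09). The summed CPM of 10 endothelial markers was 95.5 to 146.7 in fasted mice and 132.5 to 215.5 in chow mice, with 5 of the 10 markers lower and 0 higher. Some other non-neuronal markers were also lower, namely 3 of 10 mural, 3 of 4 fibroblast, 3 of 4 microglial and 2 of 7 astrocyte markers. The astrocyte median was 0.045, however. Of 4 oligodendrocyte markers 0 were lower and 1 was higher, and 0 of 7 choroid plexus and 0 of 5 red blood cell markers were called. The part of other cell types in the lower endothelial genes was not tested.

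Of 18 barrier regulators, 3 rose (background, 5.78% of genes tested) and 3 fell (background, 5.62%), with a median of -0.09. The Wnt receptor Fzd4 rose by 0.66 (SE 0.14), the caveola gene Cavin2 by 0.41 (SE 0.08) and the Wnt co-receptor Lrp5 by 0.36 (SE 0.08). Caveolin 1 (Cav1) fell by 0.70 (SE 0.07), the ligand Wnt7a by 0.67 (SE 0.12) and its receptor partner Adgra2 by 0.37 (SE 0.07). Of 16 further transporters of the same families, 3 rose and 2 fell against the same background, with a median of 0.03. Abca1 and Abcg1, which export cholesterol, rose by 0.55 (SE 0.07) and 0.23 (SE 0.06), and Mfsd2b, a sphingosine-1-phosphate exporter, by 0.45 (SE 0.12). The cystine carrier Slc7a11 fell by 0.90 (SE 0.14) and Slc7a10 by 0.35 (SE 0.08). At 16 h none of these 84 genes passed the edgeR test in either comparison, while 12 (fasting; background, 7.62% of genes tested) and 10 (HFD; background, 9.8%) had an unadjusted p under 0.05. Without mice 1423 and 1454, the counts at 24 h were 3 higher and 5 lower of the barrier transporters, and those of the other 3 lists were as given. Each gene of these lists named here kept its call, while of the cell type markers 2 fibroblast and 1 astrocyte marker were lower, and 5 endothelial, 3 mural and 3 microglial markers as before. The summed CPM of the endothelial markers was then 95.5 to 146.7 in fasted mice and 135.5 to 215.5 in chow mice.

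**Figure D5:**
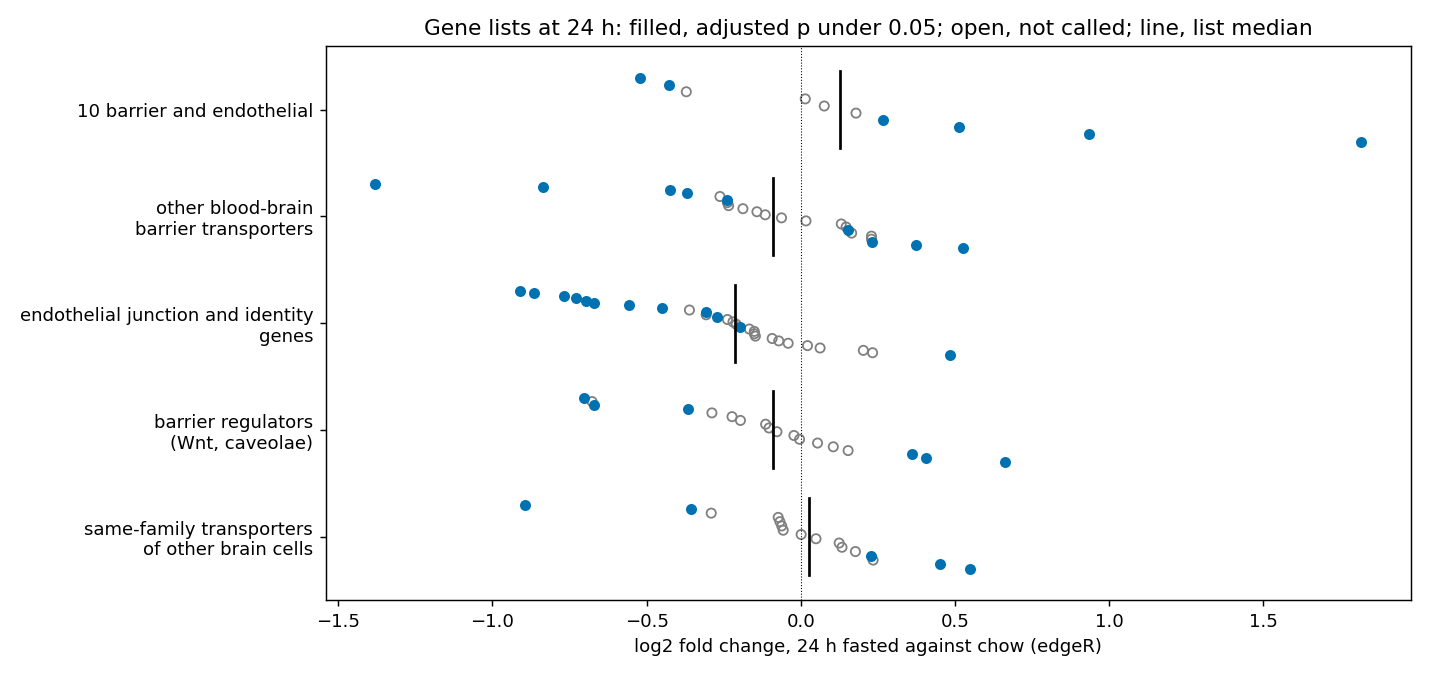
Log2 fold change at 24 h (horizontal axis) of the 10 barrier genes and of the 4 wider lists, filled where the adjusted p was under 0.05, with list medians as lines. Mfsd2a stands apart at 1.82, and the endothelial junction and identity genes have a median of -0.21.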

How the data were processed

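The deposited table held raw read counts per gene, which the authors made with STAR 2.7.3a (GeneCounts) on GRCm39 after bcl2fastq 2.20.0; the strand setting of the counting is not given in the sources used here. The kit was directional, and Mfsd2a, Slc2a1, Abcb1a and Abcg2 overlap genes on the opposite strand, so their counts may hold such reads. The members and lists were chosen with earlier results of these data known. Gene names came from GENCODE vM39 (56310 of 57010 identifiers matched).

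The 5 columns of each mouse were summed, since they name no region. Diets were compared within each study with edgeR 4.0.16 (TMM, filterByExpr, quasi-likelihood F test, Benjamini-Hochberg adjustment, threshold 0.05) in R 4.3.3; the SE is the log2 fold change divided by the square root of F. Values relative to Cldn5 used log2 CPM (prior count 2) and limma 3.58.1. DESeq2 1.42.0 was an alternative. Mice in a cage were treated as separate samples. On simulated counts for the 24 h comparison (28652 genes), edgeR recovered 184 of 200 changed genes with 8 false calls and DESeq2 188 with 29 (29011 genes), while limma relative to Cldn5 recovered 6 with 0 (28651 genes). For 16 h fasting, edgeR recovered 191 with 9 false calls (29492 genes), DESeq2 193 with 39 (29746 genes) and limma relative to Cldn5 180 with 9 (29491 genes). Every changed gene had a mean above 1 CPM and a 2-fold difference, up or down. How recovery depends on the size of a difference was therefore not tested. Named genes of each list were the 3 per direction with the largest change among called genes with mean log2 CPM of at least 0, and like genes were the 5 with the highest mean correlation. Upstream windows began at GENCODE starts, rather than the RefSeq starts planned, so that no transcribed base of the gene was printed. The window of 1 of the 10 genes is not reported here. Figures were drawn with matplotlib.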

Additional observations from a re-analysis of the deposited data

Results flagged for a closer look

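Within groups, 5 of 50 sets of values (10 genes in 5 groups) had a mouse far from the others by Dixon's 95% criterion, and chance flags about 1 in 20. Mfsd2a at 31.2 CPM and Slc2a1 at 94.2 CPM were highest in 16 h fasted mouse 11. Mfsd2a at 20.2 CPM was highest in 24 h chow mouse 1423, the mouse with an exchanged tube in the labels. Slco1c1 at 56.9 CPM was highest in 24 h fasted mouse 1453, the mouse with the highest choroid plexus marker sum. Pecam1 at 26.7 CPM was highest in 24 h chow mouse 1451.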

How the results depend on the processing

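The 24 h calls of 4 genes higher and 2 lower held under DESeq2 (4213 genes called in all), RLE factors, library sizes alone, no filter, without low columns, without mitochondrial genes and without mice 1423 and 1454 or 1423, 1454 and 1455. Leaving out each mouse in turn gave 2685 to 3725 genes called, 4 barrier genes higher and 2 to 3 lower, with Slco1c1 at -0.51 to -0.31. Equal weight for every column, low ones included, called 821 genes, 2 barrier genes higher and 0 lower. There Slc7a5 (0.50), Abcg2 (0.24), Slc16a1 (-0.38) and Cldn5 (-0.41) no longer passed. Without low columns and at equal weight, chosen after seeing the data, 2939 genes, 3 barrier genes higher and 3 lower were called, since Abcg2 (0.25) no longer passed and Slco1c1 (-0.51) did. Without mice 1443 and 1453 Slco1c1 passed (-0.44).

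The reference decided much at 24 h: 17187 genes were called in either direction relative to Cldn5, 9398 relative to 10 markers and 1408 relative to Pecam1. Slco1c1 turned to -0.14 (markers) and -0.44 (Pecam1), and Slc16a1 to -0.14 and -0.44. Relative to Pecam1, Slco1a4 (0.17), Abcb1a (0.06) and Abcg2 (0.26) no longer passed. At 16 h fasted, Slco1c1 relative to the markers was 0.00081.

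At 16 h DESeq2 called 19 genes (fasting) and 5 (HFD), with 1 barrier gene higher, Slco1a4 (0.28). Every other alternative, cage sums and rounds included, called 0. At equal weight with low columns (1 chow, 3 fasted), 9 fasting values turned negative: Slc2a1 -0.21, Slco1a4 -0.048, Slco1c1 -0.31, Slc7a5 -0.16, Slc16a1 -0.16, Abcb1a -0.14, Abcg2 -0.031, Cldn5 -0.57 and Pecam1 -0.38. Without low columns none of the 10 did.

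Signs of values near 0 turned as follows. With library sizes alone Pecam1 at 24 h was -0.038 and Slc16a1 on HFD -0.026. On HFD at equal weight Slc16a1 was -0.0070, Abcg2 -0.042 and Cldn5 -0.045. On HFD at equal weight without low columns Slc16a1 was -0.033, Abcg2 -0.037, Cldn5 -0.00057 and Pecam1 -0.0094, and Pecam1 at 24 h was -0.038. On HFD without the third round Mfsd2a was -0.016, Slco1a4 0.033 and Abcb1a 0.037. Leaving out each mouse gave, on HFD, Abcb1a -0.058 to 0.026, Cldn5 -0.0040 to 0.056, Mfsd2a -0.022 to 0.13, Slc16a1 -0.024 to 0.039 and Slco1a4 -0.042 to 0.0073, and Pecam1 at 24 h -0.026 to 0.065. The cause was not tested for any of these changes. No paired analysis was possible because the mice carry no number shared between groups; the rounds of cages, which the 3 diets shared at 16 h, were a term in 1 of the fits above, and it called 0 genes. The sums cannot resolve regions, and 27 columns were low.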
